A study of Mus musculus with 17 samples.

Results

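Type I interferon transcripts are described here for 10 genes, Ifnb1 and the 9 interferon-alpha genes Ifna1, Ifna2, Ifna4, Ifna5, Ifna9, Ifna12, Ifna14, Ifna15 and Ifna16, chosen by gene name from the 38340 genes of a table of normalised read counts. RNA was sequenced from the spleens of CB57BL/6NCrl mice (the strain as the labels spell it). The 17 libraries comprise 3 for each of 4 injected RNAs, named SLR10, SLR14, polyIC (here poly(I:C)) and pppNS, 2 for the jetPEI vehicle and 3 for untreated (naïve) animals. The series title names the question, which genes change when the RNA sensor RIG-I is activated by a minimal ligand. SLRs are stem-loop RNAs, poly(I:C) is a man-made analogue of double-stranded RNA, and the labels do not say what pppNS is made of. Every library carries the same injection text: SLRs complexed with in vivo-jetPEI, a polyethylenimine transfection reagent, with 8 as the N/P ratio, injected intravenously as 25 µg RNA per 200 µl. That text does not say how poly(I:C) or pppNS was given, and no label gives the time of collection or the age or sex of the mice. Nothing states that the libraries of a group came from separate animals, although the design text speaks of mice, so p-values measure the spread between these libraries.

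Type I interferons are secreted antiviral cytokines that all bind one receptor, built from IFNAR1 and IFNAR2. RIG-I and MDA5 sense RNA in the cytosol and signal through the adaptor MAVS to the transcription factors IRF3, IRF7 and NF-kB, which act at the interferon promoters. In many cells the beta gene and Ifna4 are transcribed early, and the other alpha genes follow when IRF7 has accumulated, while plasmacytoid dendritic cells hold IRF7 from the start.

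The libraries held 26453585 to 42775104 reads, and 15763030 to 29557853 of them lay in named genes. Values are CPM, read counts scaled by a library size that the authors normalised with edgeR. They do not add up to a fixed total, and the sums over all lines were 696315 and 696096 in the vehicle libraries. The SLR and poly(I:C) sums ran from 1058768 to 1275805, and the pppNS sums from 782210 to 1484240. A CPM unit is thus not the same share of the reads in each library. Folds against vehicle come out larger on this scale than on plain read depth. A single read was worth 0.0175 to 0.0431 CPM, and 3 reads, the floor of detection used here, were worth 0.0525 to 0.129 CPM. Markers of B cells, T cells, red pulp macrophages and splenic stroma were detected in each group, and their changes are given at the end. The summed CPM of 6 erythroid genes ranged from 2383 to 59310, and 4 libraries exceeded 15000 (SLR14 replicate 2, poly(I:C) replicates 2 and 3, and pppNS replicate 3). Beside the counts that follow, the fit was repeated without those 4 libraries, a check chosen after seeing the data.

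All 10 genes are single-exon genes on chromosome 4 (GRCm38, GENCODE M21 annotation), in a cluster of 328.631 kb that runs from the end of Ifnb1 at 88522025 to the end of Ifna1 at 88850656. Ifna1, Ifna4 and Ifna5 lie on the forward strand and the other 7 on the reverse strand. The alpha genes are near copies of each other: over 36 pairs their coding sequences were 83.9% to 94.6% identical (median 90.1%). The identity of an alpha gene with Ifnb1 was 49.2% to 51.5%. Of the 50-base stretches of each gene model, the share found in no other gene ran from 32.6% in Ifna1 and 47.8% in Ifna5 to 93.6% in Ifna4 and 100% in Ifnb1. How reads that fit several genes were counted is not given in the sources used here, so the split of reads among alpha genes is less certain than their sum.

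The 250 bases upstream of the RefSeq start (GRCm38.p6) are shown for 4 genes, since alpha and beta promoters differ in the elements they hold. Ifnb1 is the beta gene. In CPM per kilobase of exon Ifna5 was the most abundant alpha gene after the SLRs, Ifna4 the most abundant after poly(I:C), and Ifna16 the least abundant after both, an order that partly changes with the length used. Each sequence is written 5′ to 3′ on the gene's own strand, and capitals mark a match to an interferon regulatory factor element (GAAA, any 2 bases, GAAA) or to an NF-kB site (GGGA, any 4 bases, CC).
Ifnb1: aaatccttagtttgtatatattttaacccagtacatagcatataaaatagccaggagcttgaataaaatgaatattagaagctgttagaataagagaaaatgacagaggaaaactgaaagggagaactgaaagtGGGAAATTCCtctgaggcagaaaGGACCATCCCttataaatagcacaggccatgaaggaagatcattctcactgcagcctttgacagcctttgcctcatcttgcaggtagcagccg
Ifna4: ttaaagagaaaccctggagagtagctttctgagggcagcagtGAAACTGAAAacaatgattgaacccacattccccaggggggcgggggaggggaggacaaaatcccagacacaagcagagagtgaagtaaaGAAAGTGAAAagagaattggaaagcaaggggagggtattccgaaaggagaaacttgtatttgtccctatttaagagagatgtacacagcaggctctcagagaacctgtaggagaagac
Ifna5: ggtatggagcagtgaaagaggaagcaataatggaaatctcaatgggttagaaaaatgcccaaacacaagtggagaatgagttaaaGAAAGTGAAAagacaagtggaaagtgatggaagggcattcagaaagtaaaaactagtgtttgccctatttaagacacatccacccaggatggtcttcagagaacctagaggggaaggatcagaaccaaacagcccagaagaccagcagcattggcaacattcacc
Ifna16: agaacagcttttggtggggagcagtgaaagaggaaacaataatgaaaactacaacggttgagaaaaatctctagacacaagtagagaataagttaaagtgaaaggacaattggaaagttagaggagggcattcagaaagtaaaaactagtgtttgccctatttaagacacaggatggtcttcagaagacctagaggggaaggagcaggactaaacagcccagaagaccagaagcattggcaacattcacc
They lie on chromosome 4 at chr4:88522795-88523044 (Ifnb1, reverse strand), chr4:88841566-88841815 (Ifna4, forward), chr4:88835275-88835524 (Ifna5, forward) and chr4:88676857-88677106 (Ifna16, reverse).

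Motifs were searched on both strands of windows of 300 bases, from 250 before to 50 after the start. The interferon regulatory factor element was present in 8 of the 9 alpha windows and absent from those of Ifna16 and Ifnb1, against 3.44% of all 32851 RefSeq windows. Ifna2, Ifna4, Ifna9, Ifna14 and Ifna15 held 2 copies each and the other 3 genes 1. The NF-kB site occurred in Ifnb1 alone, at position -116 on the gene's strand and at -93 on the other, against 20.7% of all windows. TGANTCA, an AP-1 site, was in none of the 10 windows and in 7.81% of all windows. The shorter AANNGAAA, which lies within the interferon regulatory factor element and was added after the first matches were seen, was in 10 of the 10 windows and in 23.9% of all. These matches are letters in a window, and binding was not measured.

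Ifnb1 encodes interferon beta. Its level was 249.8, 158 and 243 CPM in the SLR10 libraries and 235, 169.8 and 241 CPM in the SLR14 libraries. After poly(I:C) it was 76.9, 45.6 and 55.2 CPM. After pppNS it was 0.617, 0.212 and 0.356 CPM, from 21, 10 and 10 reads. The vehicle libraries had 0 and 3 reads of Ifnb1 and the naïve libraries 0, 1 and 0, so no control library exceeded 3 reads. The SLR, poly(I:C) and pppNS libraries thus formed 3 tiers that did not overlap, above controls at or under the 3-read floor. The RNA came from whole spleen, where fewer cells of a type and less RNA per cell cannot be told apart.

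The 9 alpha genes encode secreted interferons that act through the same receptor as interferon beta. Their summed level was 844, 511 and 788 CPM after SLR10, 788, 607 and 689 CPM after SLR14, and 274, 136 and 166 CPM after poly(I:C). It was 1.21, 0.594 and 0.213 CPM after pppNS, from 41, 28 and 6 reads over the 9 genes. The controls together held 11 alpha reads, 9 of them in naïve replicate 2. The alpha sum kept the order of Ifnb1: SLRs, then poly(I:C), then pppNS, with no overlap.

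Ifna4, the alpha gene described as early in other cells, stood at 115, 78.4 and 112 CPM after SLR10, 118, 81.4 and 104 CPM after SLR14, and 44.0, 21.1 and 26.1 CPM after poly(I:C). In the pppNS libraries it had 6, 7 and 0 reads, and in the controls it was read only in naïve replicate 2, with 4 reads. Ifna5, which led the alpha genes after the SLRs per kilobase of exon though not in CPM, stood at 144, 84.7 and 130.1 CPM after SLR10, 125, 103 and 114 CPM after SLR14, and 40.6, 17.8 and 23.5 CPM after poly(I:C). For both genes the lowest SLR library lay above the highest poly(I:C) library.

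Within a group the 10 genes moved together. SLR10 replicate 1 was the highest and SLR10 replicate 2 the lowest of its group for 10 of 10 genes, and so were poly(I:C) replicates 1 and 2. In the SLR14 group, replicate 1 was highest for 9 genes and replicate 2 lowest for 8. Poly(I:C) replicate 2 and SLR14 replicate 2 also held the most erythroid RNA of their groups (34033 and 27499 summed CPM), whereas SLR10 replicate 2 held the least of all 17 libraries (2383). The part of erythroid RNA in these levels was not tested.

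**Figure D1:**
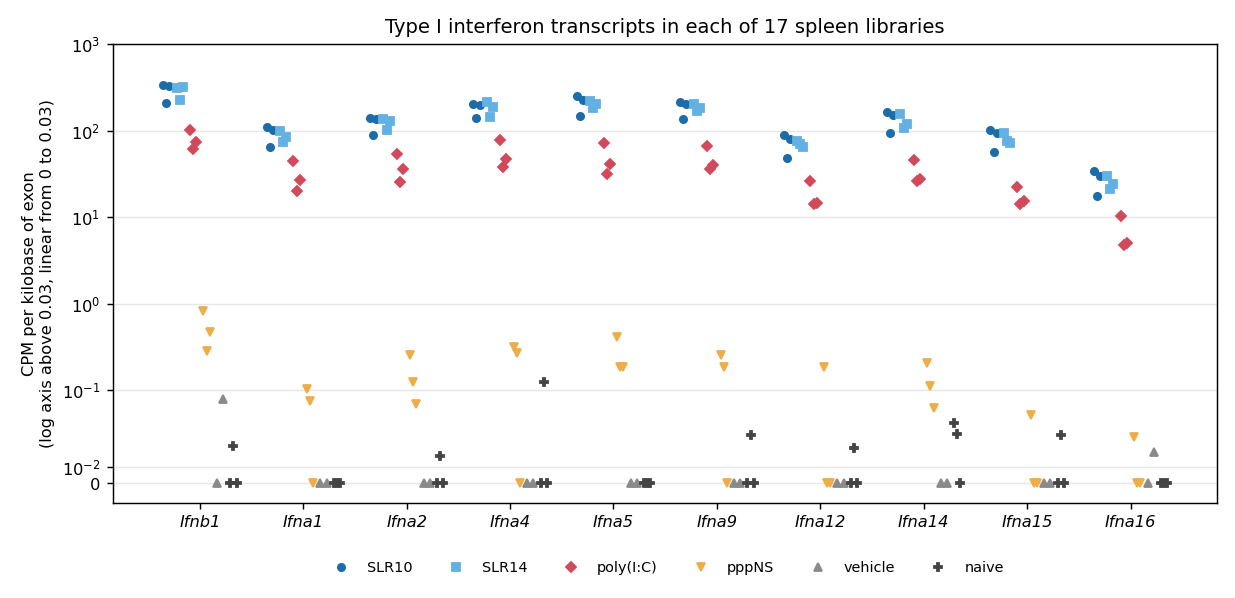
Level of each gene in each of the 17 libraries, as CPM per kilobase of exon, on an axis that is logarithmic above 0.03 and linear below; every point is a library. SLR10 and SLR14 points lie together at the top, poly(I:C) points form a lower band for all 10 genes, and pppNS points lie at or under 0.823.

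Compared with vehicle, Ifnb1 and the 9 alpha genes rose after SLR10, SLR14 and poly(I:C). The limma test on log2(CPM + 0.5) over 14010 genes called 10 of 10 genes after SLR10, where 39.4% of all tested genes were called (20.2% as higher). It called 10 of 10 after SLR14 (background 38.7%, 19.3% as higher) and 10 of 10 after poly(I:C) (35.9%, 18.6% as higher). The 10 genes passed the filter on low values, 1 CPM in at least 2 libraries, only through their levels in these treated groups. Without the 4 erythroid-rich libraries the log2 differences from vehicle after SLR14 lay between 5.76 (Ifna16) and 8.82 (Ifnb1). After poly(I:C), with replicate 1 alone in its group, they lay between 4.43 (Ifna16) and 7.19 (Ifnb1). The counts against vehicle therefore describe what the filter already required, so the folds are given as well. With 3 reads over the vehicle pair, Ifnb1 was 6251 times as high after SLR10 (95% counting interval 2139 to 30315), 6224 times after SLR14 (2129 to 30184) and 1776 times after poly(I:C) (607 to 8612). The 8 alpha genes other than Ifna16 had no read in the vehicle pair, and their folds are lower bounds, set against 3 reads over the group. After SLR10 the bounds ran from at least 1376-fold higher for Ifna15 to at least 3641-fold for Ifna2, and after poly(I:C) from at least 299-fold for Ifna15 to at least 1198-fold for Ifna2. Intervals cover the counting error of reads pooled over a group and leave out the spread between libraries. They may also be too narrow for counting error, because reads copied by PCR are not independent molecules. The bounds set against 3 reads allow for no counting error in the reads of the treated group. Folds, intervals and bounds all take the CPM scaling as given, and on plain read depth they would be smaller. Vehicle and naïve spleens held too few reads of the 10 genes, 4 and 11, to be compared, and a test on them could hardly call any. Limma called 0 of 10 (background 0.05%, 0.0143% as higher), and 0 of 10 had an unadjusted p under 0.05. EdgeR (background 0.00714%) and DESeq2 (background 0.707%) also called 0 of 10.

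The comparison of the SLRs with poly(I:C) asks whether ligands that all raised these genes did so to the same level. They did not: each of the 10 genes was higher after the SLRs. Ifnb1 averaged 216 ± 40.8 CPM (SD, n = 6) after SLR10 and SLR14 and 59.2 ± 16.0 CPM (SD, n = 3) after poly(I:C), a ratio of 3.65. On the log2 scale of the limma fit the difference for Ifnb1 was 1.87 ± 0.20 (SE), with an adjusted p of 0.00026. Ifna15 had the largest ratio of means, 4.73, with a log2 difference of 2.18 ± 0.19 and an adjusted p of 2.93e-05 in limma. Ifna1 had the smallest, 2.93, with a log2 difference of 1.57 ± 0.22 and an adjusted p of 0.00163 in limma. Ifna5, at 4.28, was next below Ifna15, and the other 6 alpha genes lay between 3.17 (Ifna2) and 3.93 (Ifna14).

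The limma fit called 10 of 10 genes higher after the SLRs, against 3.5% of all tested genes in either direction and 1.66% in this one. For 10 of 10 genes every SLR library exceeded every poly(I:C) library, an order seen in 7.62% of all tested genes. The median log2 difference was 1.95 over the alpha genes and -0.03 over all genes. Without the 4 erythroid-rich libraries, poly(I:C) replicate 1 is alone in its group, so only the size of the differences is given. The log2 differences of the 10 genes then fell to between 1.02 (Ifna1) and 1.82 (Ifna15), with 1.54 for Ifnb1.

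SLR10 and SLR14 were not told apart at any of the 10 genes. The fitted difference for Ifnb1, SLR14 minus SLR10, was 0.00 on the log2 scale, with a 95% interval from -0.50 to 0.51. The widest interval, that of Ifna16, ran from -0.66 to 0.52. Among the alpha genes the differences lay between -0.07 and 0.02. Limma called 0 of 10 genes, as it called 0% of all genes, and 0 of 10 had an unadjusted p under 0.05. EdgeR (background 0%) and DESeq2 (background 0.00714%) also called 0 of 10.

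**Figure D2:**
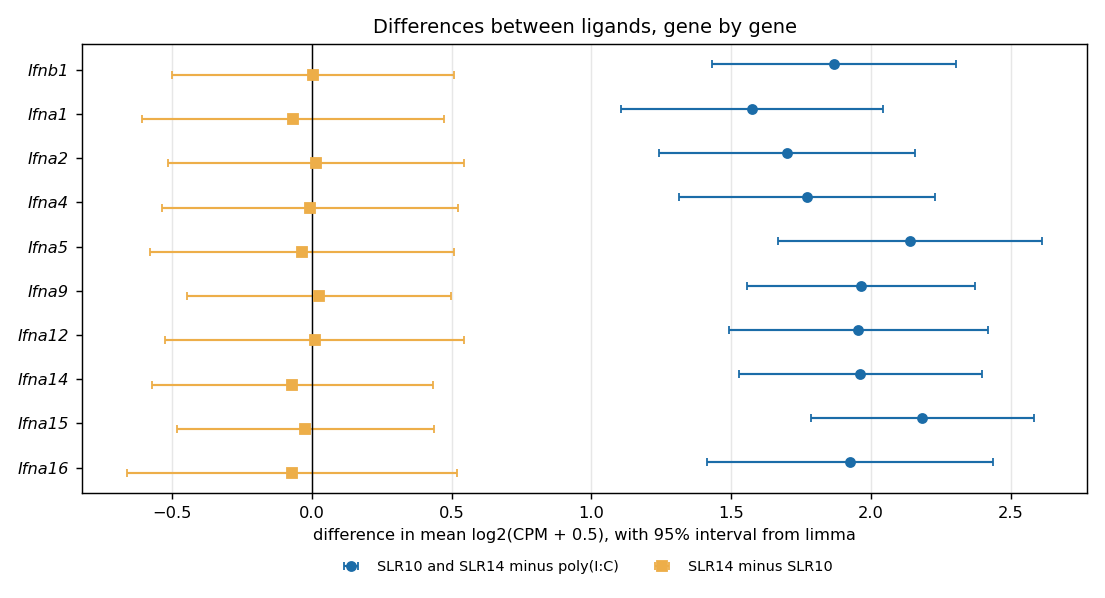
Difference in mean log2(CPM + 0.5) for each gene, SLRs minus poly(I:C) (circles, 6 against 3 libraries) and SLR14 minus SLR10 (squares, 3 against 3), with 95% intervals from limma. All 10 circles lie between 1.57 and 2.18 with intervals above 0, and all 10 squares have intervals that span 0.

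Next, the make-up of the alpha pool was compared, as each gene's share of the 9 alpha genes in CPM per kilobase of exon. The pool is these 9 genes and not the whole alpha family. Of 8 other type I interferon names looked up, only 4 matched a gene, among them Ifna13, which is described at the end. Ifna5, Ifna9 and Ifna4 were the leading genes in all 3 responding groups and Ifna16 the least. After SLR10, Ifna5 held 18.9% (18.7% to 19.3% over 3 libraries), above Ifna9 with 16.7% and Ifna4 with 16.6%, whose ranges overlapped. Ifna14 (12.1%), Ifna2 (11.1%), Ifna1 (8.29%), Ifna15 (7.50%), Ifna12 (6.44%) and Ifna16 (2.41%) followed, each clear of the next. The SLR14 order was the same, with overlapping ranges between Ifna14 and Ifna2 and from Ifna1 through Ifna15 to Ifna12. After poly(I:C), Ifna4 led with 18.3% (17.95% to 18.7%), clear of Ifna9 (16.3%) and Ifna5 (16.1%), which overlapped each other.

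Between the SLRs and poly(I:C), 4 of the 9 shares did not overlap. The Ifna1 share was 8.14% ± 0.218 (SD, n = 6) after the SLRs and 10.2% ± 0.588 (n = 3) after poly(I:C). The Ifna4 share was 16.6% ± 0.934 against 18.3% ± 0.369. Both were lower in every SLR library than in any poly(I:C) library. The reverse held for Ifna5, with 18.8% ± 0.468 against 16.1% ± 1.05, and for Ifna15, with 7.50% ± 0.460 against 6.07% ± 0.711. Each of these 4 differences had p = 0.0238 in a two-sided exact permutation test, the smallest that 6 against 3 libraries can give. After Benjamini-Hochberg adjustment over 10 measures (9 shares and the alpha to beta ratio) the exact p became 0.0595, so 0 of 9 shares passed 0.05. For Ifna2 the SLR share was 11.2% ± 0.541 and the poly(I:C) share 13.1% ± 1.09, with overlapping libraries and an adjusted exact p of 0.0952. The shares of Ifna9, Ifna12, Ifna14 and Ifna16 differed by less than 1 percentage point between the groups, with adjusted exact p from 0.397 to 0.524. Ifna1 and Ifna5 are also the genes with the fewest stretches of their own (32.6% and 47.8%), and the part of shared reads in their shares was not tested. Between SLR14 and SLR10 no share was separated, and 3 against 3 libraries cannot go below an exact p of 0.1.

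**Figure D3:**
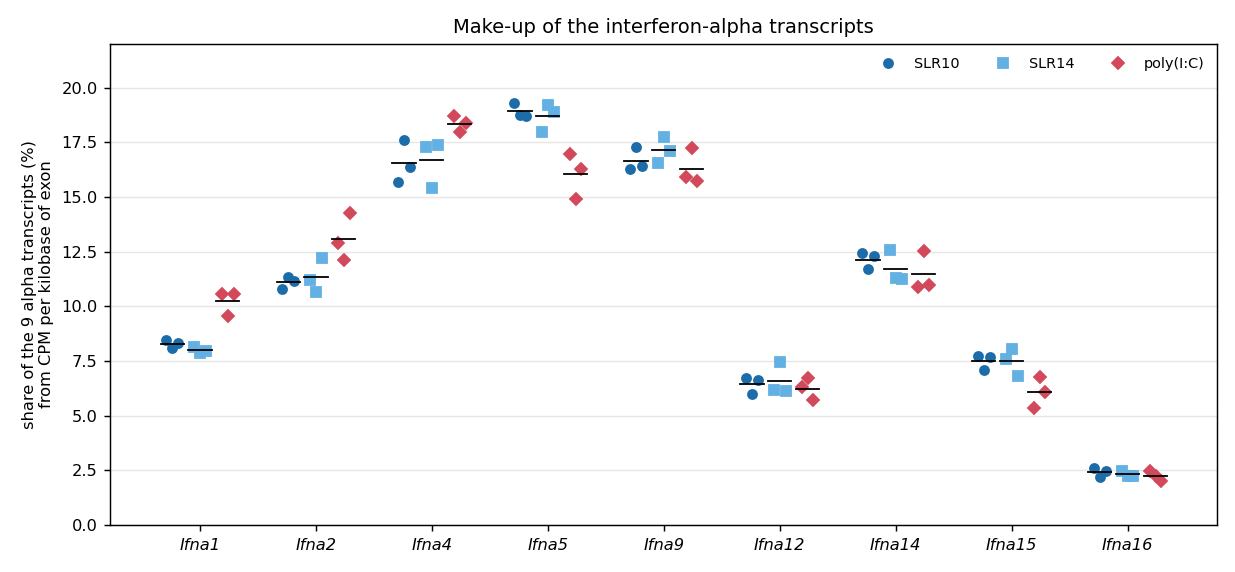
Share of each gene among the 9 alpha transcripts, in percent of their summed CPM per kilobase, with a point for each library and a line at the group mean. The poly(I:C) points lie apart from all SLR points at Ifna1 and Ifna4 (higher) and at Ifna5 and Ifna15 (lower).

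The order of the alpha genes depended on how length was counted. The models of Ifna2, Ifna12 and Ifna16 include untranslated bases, while those of the other 6 hold the coding sequence only. Counted as plain reads or per kilobase of coding sequence, Ifna2 came first in all 3 groups. Counted per kilobase of 50-base stretches found in no other gene, Ifna5 was first and Ifna1 second in all 3. With 100-base stretches Ifna5 was also first in all 3, with 18.3% after poly(I:C) against 17.5% for Ifna4. Ifna4 thus led after poly(I:C) only per kilobase of exon. The fold changes of single genes use no length, but the shares do. With 50-base stretches as the length, the Ifna1 share after the SLRs minus that after poly(I:C) was -4.05 percentage points, against -2.08 per kilobase of exon. With each length basis 0 of 9 shares passed 0.05.

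The ratio of summed alpha to beta transcripts, both per kilobase of exon, lay between 3.31 and 4.15 in the 9 SLR and poly(I:C) libraries. It was 3.92, 3.76 and 3.77 after SLR10, 3.89, 4.15 and 3.31 after SLR14, and 4.10, 3.45 and 3.44 after poly(I:C). The means were 3.82 ± 0.0890, 3.78 ± 0.433 and 3.66 ± 0.375 (SD, n = 3 each), and the groups overlapped. The log2 ratio differed by 0.05 between the SLRs and poly(I:C), with p = 0.5 in a two-sided exact permutation test (adjusted 0.524), and by -0.02 between SLR14 and SLR10, with an exact p of 0.9 (adjusted 1). Although the poly(I:C) level of both kinds of transcript was lower, their proportion was not separated from that after the SLRs.

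The pppNS libraries had too few reads to fix the ratio. It was 2.20 (95% counting interval 1.27 to 3.93) in replicate 1, 3.34 (1.58 to 7.71) in replicate 2 and 0.672 (0.201 to 2.04) in replicate 3. Only replicate 3, which also held the most erythroid RNA of all libraries, had a counting interval wholly below the SLR and poly(I:C) values. Tested after these values were seen, the log2 ratio was 1.15 higher after the SLRs than after pppNS (exact permutation p = 0.0476, adjusted over 2 comparisons 0.0952) and 1.10 higher after poly(I:C) (exact permutation p = 0.1, the smallest possible). No ratio was formed for the controls, whose libraries held at most 10 reads of the 10 genes together.

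**Figure D4:**
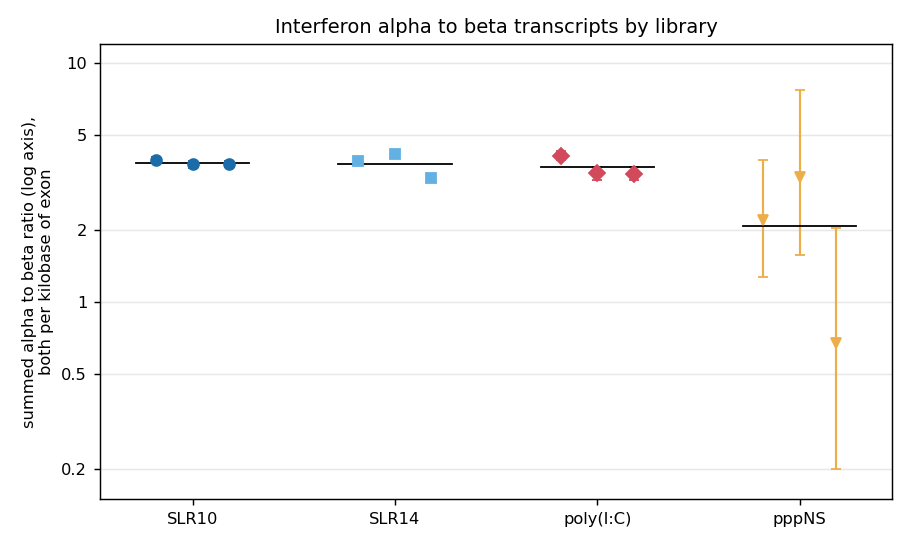
Ratio of summed alpha to beta transcripts per kilobase of exon in each library (log axis), with 95% counting intervals and a line at each group mean. The 9 SLR and poly(I:C) libraries lie between 3.31 and 4.15, and the pppNS libraries spread from 0.672 to 3.34 with wide intervals.

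Compared with vehicle, pppNS left these genes near the limit of detection. The 3 pppNS libraries held 62, 38 and 16 reads of the 10 genes, the vehicle libraries 0 and 4, and the naïve libraries 1, 10 and 0. Ifnb1 accounted for 41 of the pppNS reads, against 3 in the vehicle pair, a ratio of 11.0 (95% counting interval 3.53 to 55.8). Ifna2 had 17 reads, Ifna5 16 and Ifna4 13, against 0 in the vehicle pair. Set against 3 reads over the vehicle pair, these gave 4.58-fold, 4.31-fold and 3.504-fold, with no allowance for counting error in the pppNS reads. Every pppNS library exceeded both vehicle libraries for 4 of the 10 genes, an order seen in 22.9% of all genes tested.

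The limma test called 0 of 10 genes against vehicle (background 4.3%, 2.96% as higher), and 1 of 10, Ifnb1, had an unadjusted p under 0.05. Its log2 difference was 0.73, with a 95% interval from 0.17 to 1.30 and an adjusted p of 0.14 in limma. At these levels the added 0.5 CPM draws the fitted difference towards 0, and the call depended on the method. With a pseudocount of 0.1 limma called 2 genes, Ifna5 and Ifnb1. No share of all genes called is given here for this or the other alternative limma fits. On the recovered reads edgeR called 2, Ifna2 and Ifnb1 (background 4.06%), and DESeq2 called 5, Ifna2, Ifna4, Ifna5, Ifna9 and Ifnb1 (background 9.98%). With vehicle and naïve libraries together as the control, limma called Ifnb1 alone, and without the 4 erythroid-rich libraries it called 0 (Ifnb1 adjusted p 0.0505 in limma). Both the SLRs and poly(I:C) exceeded pppNS at 10 of 10 genes in limma (background 44.9%, 22.8% as higher, and 26.8%, 15.4% as higher), by log2 differences of 7.92 ± 0.20 and 6.05 ± 0.23 for Ifnb1. As against vehicle, these counts describe what the filter required, since no pppNS value of the 10 genes reached 1 CPM.

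Genes induced by interferon rose after all 4 agents, and at these genes the SLR and poly(I:C) groups were not told apart. The target list holds Isg15, a ubiquitin-like modifier, Ifit1, which binds viral RNA, the antiviral GTPase Mx1, Oas1a, a 2-5A synthetase, Rsad2, which encodes viperin, the chemokine Cxcl10, and Bst2, which encodes tetherin. All 7 rose against vehicle after SLR10, SLR14, poly(I:C) and pppNS, where 20.2%, 19.3%, 18.6% and 2.96% of all tested genes were called higher. Their median log2 differences were 5.40, 5.83, 5.79 and 4.63. The median over all genes was -0.01, 0.04, 0.07 and 0.01. Cxcl10 averaged 2947 ± 101 CPM after SLR10, 3085 ± 447 after SLR14, 2877 ± 668 after poly(I:C), 923 ± 454 after pppNS (SD, n = 3 each) and 21.97 ± 3.34 after vehicle (n = 2). Isg15 averaged 927 ± 44.1, 1331 ± 593, 1285 ± 496, 710.3 ± 615 and 21.5 ± 0.810 CPM in the same order. Thus pppNS spleens, with 116 reads of the 10 interferon genes in 3 libraries, had Cxcl10 at 5.21 ± 0.37 on the log2 scale above vehicle (adjusted p 5.83e-06 in limma).

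Between the SLRs and poly(I:C), 0 of the 7 targets were called by limma, and 0 had an unadjusted p under 0.05. Only 3.5% of all tested genes were called in that comparison, so a count of 0 in 7 is near the share over all genes. The difference was 0.09 for Cxcl10 (95% interval -0.52 to 0.70), -0.18 for Isg15 (-1.09 to 0.74) and 0.03 for Mx1 (-0.53 to 0.59). The 7 differences ranged from -0.91 for Rsad2 (-1.84 to 0.02) to 0.80 for Bst2 (-0.03 to 1.63), with a median of 0.03. Against pppNS, 5 of 7 targets were higher after the SLRs and 5 of 7 after poly(I:C) (22.8% and 15.4% of all genes). The SLR minus pppNS difference was 1.87 ± 0.29 for Cxcl10 and 2.07 ± 0.26 for Mx1, and for Isg15 it was 0.98 ± 0.43 and not called (adjusted p 0.0728 in limma).

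**Figure D5:**
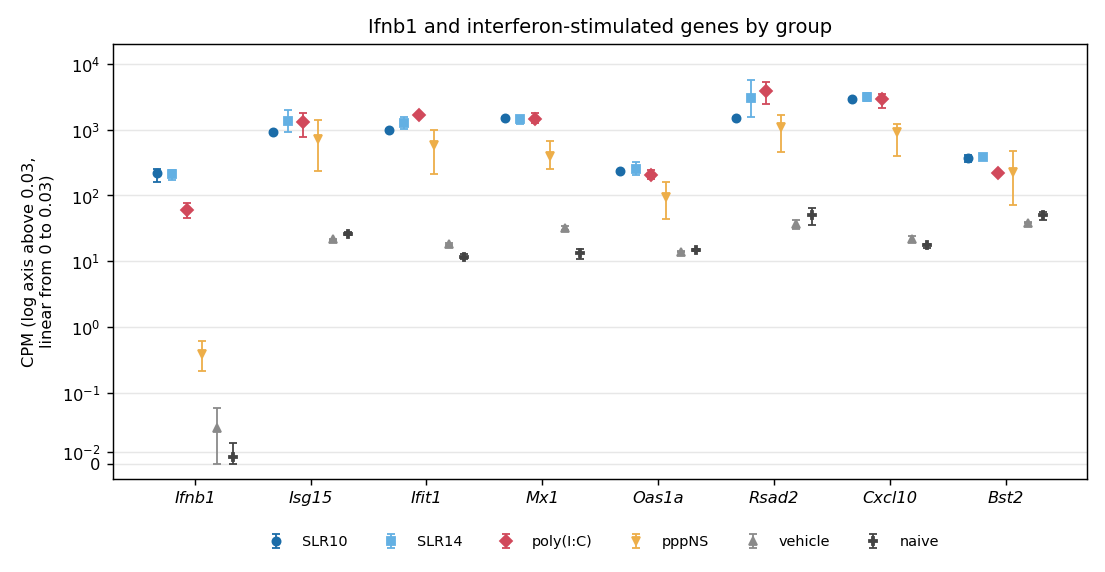
Mean CPM of Ifnb1 and of 7 interferon-stimulated genes in each group, with bars from the lowest to the highest library, on an axis that is logarithmic above 0.03. Ifnb1 falls in steps from the SLRs to poly(I:C), pppNS and the controls, whereas in the 7 target genes the pppNS group lies above both control groups.

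Of 9 receptor and signalling genes, 5 rose after SLR10, 5 after SLR14, 6 after poly(I:C) and 5 after pppNS, and none fell. Of all tested genes 20.2%, 19.3%, 18.6% and 2.96% were called higher in these comparisons. Their median log2 differences were 1.28, 1.42, 1.66 and 1.10. The feedback inhibitors Socs1 and Usp18 were among the genes that rose after each of the 4 agents. Usp18 rose by 5.36, 5.62, 5.57 and 4.09 on the log2 scale after SLR10, SLR14, poly(I:C) and pppNS. Ifnar2, a receptor chain, was called after poly(I:C) alone among the 4 agents (0.90 ± 0.28, adjusted p 0.0233 in limma). Ifnar1, the other chain, differed from vehicle by 0.14, 0.18, 0.01 and -0.36 in the 4 treated groups and was not called in any. No gene of this list was called between the SLRs and poly(I:C), where 3.5% of all tested genes were called. In that limma comparison 2 of 9 had an unadjusted p under 0.05.

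Of 21 sensing and induction genes, 16 rose after SLR10, 16 after SLR14, 16 after poly(I:C), where 1 fell (Ticam1, the TLR3 adaptor), and 8 after pppNS. The shares of all genes called higher are those given for the receptor list, 20.2%, 19.3%, 18.6% and 2.96%. The median log2 differences of this list were 2.13, 2.11, 2.15 and 0.61. Ddx58, which encodes RIG-I, averaged 705 ± 17.7 CPM after SLR10, 761 ± 66.8 after SLR14, 840.0 ± 83.6 after poly(I:C), 268 ± 109 after pppNS and 90.4 ± 4.63 after vehicle. Irf7, the factor that drives the alpha genes, averaged 1610.2 ± 85.1, 1749 ± 212, 1406 ± 164, 523 ± 180.5 and 73.3 ± 5.0 CPM in that order. Irf7 rose in all 4 treated groups, by 4.45, 4.56, 4.25 and 2.76 on the log2 scale. Irf3, which needs no induction to act, was not called in any of them. Irf8 rose by 2.27 after SLR10, 2.06 after SLR14 and 1.81 after poly(I:C), and after pppNS its difference was -0.23 (adjusted p 0.554 in limma). Between the SLRs and poly(I:C) only Ticam1 of the 21 was called (0.66 ± 0.14, adjusted p 0.0231 in limma), against 3.5% of all tested genes.

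Outside the 10 genes, those whose profile over the 17 libraries was nearest to Ifnb1 were Ifng, Mmp13, Il27, Il6 and Gbp2, measured as the root mean square difference between centred log2(CPM + 0.5) profiles. That distance was 1.12 for Ifng and 1.43 for Mmp13, while Ifna2 stood at 0.320 and Ifna16 at 1.4. For the summed alpha genes the nearest were Ifng (1.74), Mmp13, Il6, Il27 and Irg1. Ifng, which encodes the type II interferon, had group means of 162 CPM after SLR10, 193 after SLR14, 167 after poly(I:C), 4.17 after pppNS and 0.887 after vehicle. The SLR and poly(I:C) means of Ifng were thus near each other, unlike those of Ifnb1.

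Of the cells that can make type I interferon, the 7 plasmacytoid dendritic cell genes summed to 371 to 419 CPM after SLR10, 348 to 410.4 after SLR14, 281 to 340.3 after poly(I:C), 234 to 335 after pppNS and 343 to 357 after vehicle. The SLR14 range overlapped that of vehicle, the SLR10 range lay above it, and the poly(I:C) and pppNS ranges lay below it. The naïve libraries, at 287 to 335 CPM, also lay below vehicle and overlapped the poly(I:C) and pppNS ranges. No gene of the list was at 0 in any group. Most of the sum came from Spib and Tcf4, which B cells and other cells also express. Of the 7 genes, limma called 1 higher than vehicle (Tcf4, by 0.97, 1.00 and 1.46 on the log2 scale) after SLR10, SLR14 and poly(I:C). It called 2 lower after SLR10 and SLR14 (Siglech and Ccr9), 3 lower after poly(I:C) (with Spib) and 0 after pppNS, where 3 had an unadjusted p under 0.05. Of all tested genes 20.2%, 19.3%, 18.6% and 2.96% were called higher after SLR10, SLR14, poly(I:C) and pppNS, and 19.2%, 19.4%, 17.3% and 1.35% lower. Between the SLRs and poly(I:C) limma called 1, Spib, higher after the SLRs by 1.47, against 1.66% of all tested genes. The 5 conventional dendritic cell genes summed to 53.1 to 69.0 CPM in the SLR and poly(I:C) libraries, against 106 to 120.3 after pppNS and 156 to 160 after vehicle. The naïve range was 123 to 156 CPM. The 4 marginal zone macrophage genes summed to 59.3 to 62.9 CPM after SLR10, 51.0 to 83.8 after SLR14 and 39.2 to 66.1 after poly(I:C). They summed to 132 to 260 CPM after pppNS, 80.1 to 116 after vehicle and 97.2 to 172 in the naïve libraries. Limma called 2 of these 4 lower than vehicle after each of SLR10, SLR14 and poly(I:C), against 19.2%, 19.4% and 17.3% of all tested genes. The 5 monocyte and neutrophil genes summed to 446 to 537 CPM after SLR10, 416 to 838 after SLR14, 701 to 1188 after poly(I:C), 232 to 1032 after pppNS and 163 to 169.9 after vehicle. The naïve range here was 206 to 273 CPM, which overlapped that of pppNS. The 5 genes did not move together. Limma called 3 of them higher than vehicle and 1 lower after each of SLR10, SLR14 and poly(I:C). The lowest log2 differences in this list were -3.52, -3.40 and -3.01. The shares of all tested genes called higher and lower are those given for the plasmacytoid list. Markers of other spleen cells moved as well, and none of the B cell, T cell, red pulp macrophage and stroma genes was called higher than vehicle. After SLR10 limma called 1 of 4 B cell, 2 of 4 T cell, 2 of 4 red pulp macrophage and 1 of 2 stroma genes lower than vehicle. After SLR14 these counts were 2, 2, 2 and 1, after poly(I:C) 2, 2, 1 and 1, and after pppNS 0, 0, 1 and 1. The shares of all tested genes called lower are those given for the plasmacytoid list, 19.2%, 19.4%, 17.3% and 1.35%. The deepest fall after SLR10 was that of Slc40a1, the iron exporter of red pulp macrophages, with -3.76 on the log2 scale. Between the SLRs and poly(I:C), 2 of 4 red pulp macrophage genes were lower after the SLRs (Slc40a1 by -0.85 and Cd163 by -1.33) and 0 genes of the other 3 lists were called. In that comparison 1.85% of all tested genes were called lower. The part of these cell types in the interferon levels was not tested.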

How the data were processed

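Spleen RNA of 17 mouse libraries was measured with stranded mRNA kits, per the labels' protocols. The submitters' processing notes name FastQC, TopHat2 2.0.6, SAMtools 1.4, HTSeq, edgeR and the builds GRCm38 and mm10; the annotation and the handling of multi-mapped reads are not given in the sources used here. The deposited signal values are gene counts that the authors scaled with edgeR, and the header calls CPM. All values (100%, within 0.01 read) were whole multiples of 1 read, so reads were recovered. Left out were 5 unnamed lines (28.1% to 46.1% of reads), 699 named #N/D, 27 date-like names and 113 repeats of 39184.

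The main test was limma 3.58.1 (R 4.3.3) on log2(CPM + 0.5), all libraries, with a trend, for 14010 genes with 1 CPM in 2 libraries, Benjamini-Hochberg adjusted within a comparison, threshold 0.05. Alternatives used edgeR 4.0.16 and DESeq2 1.42.0 on recovered reads. Test counts were simulated around the mean of each gene with the same dispersion, 0.05, for all genes. On them the SLR10 against vehicle fit over 14010 genes recovered 46% of 2-fold and 100% of 4-fold rises. The spread of the real libraries was not simulated, so these rates need not hold for them. Counting intervals are 95% exact intervals on reads. Named genes are the members and fixed pathway lists; members and lists were chosen with earlier results of these data known.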

Additional observations from a re-analysis of the deposited data

How the results depend on the processing

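The alternatives changed the pseudocount, filter, scaling, libraries in the fit, replicate block, test (edgeR, DESeq2), control group, length basis and alpha set, or left out libraries. Of the summary values under them, 201 kept their side of the threshold and 4 did not. Of the single-gene values, 1719 kept their side and 10, all for pppNS against vehicle, newly passed the threshold. Values short of the threshold could change direction and still count as kept. Both tallies include share and ratio tests that could not pass 0.05. These are the tests of SLR14 against SLR10, those without a poly(I:C) library and those within replicate numbers. The tallies therefore do not measure how stable the shares and the ratio are. The 4 that moved were the count of members called for pppNS against vehicle, which was 0 in the report, 2 with a pseudocount of 0.1, 2 with edgeR, 5 with DESeq2 and 1 with vehicle and naïve together as control. In edgeR the adjusted p was 0.0473 for Ifna2 and 0.033 for Ifnb1. In DESeq2 it was 0.0139 for Ifna2, 0.0302 for Ifna4, 0.0164 for Ifna5, 0.0495 for Ifna9 and 0.00556 for Ifnb1. Leaving out each pppNS or vehicle library gave 0 members called. Over all 14010 genes, limma called 603 against vehicle for pppNS and DESeq2 1398. For SLR14 against SLR10 limma called 0, edgeR 0 and DESeq2 1. For the SLRs against poly(I:C) limma called 491 and DESeq2 1233, and for vehicle against naïve limma called 7, edgeR 1 and DESeq2 99. The log2 alpha to beta difference between the SLRs and poly(I:C) ran from 0.01 to 0.14 when each library was left out. Between SLR14 and SLR10 it ran from -0.09 to 0.07.

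With the replicate block, counts of members called were the same as in the report for each comparison (10, 10, 10, 0, 0, 0, 10, 10 and 10). Permutation within replicate numbers gave 0 shares past the threshold, with a smallest adjusted p of 0.123 by exact permutation. That permutation has too few arrangements for any share to pass the threshold. Its count of 0 was therefore fixed in advance and does not show whether the shares are stable. Same-numbered libraries of different groups had a median correlation of deviations of 0.03 over 40 pairs (-0.52 to 0.80), and others -0.03 over 80 pairs (-0.88 to 0.72). With ranges this wide, the medians cannot settle whether some libraries of the same number share a batch. In the SLR10, SLR14 and poly(I:C) groups, replicate 1 was highest and replicate 2 lowest for most of the 10 members. Leaving out the 4 erythroid-rich libraries and 3 further length bases (50-base and 100-base stretches found in no other gene, coding length) were chosen after seeing the data. The planned count of k-mers unique in the genome was not run, since no genome sequence was used here. Depth limits the pppNS and control values, where 7, 5 and 1 of the 10 members had over 3 reads in the pppNS libraries.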

Other observations

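One more alpha gene of the table, Ifna13 (GRCm38 chromosome 4, 88643641 to 88644459, reverse strand), was looked at after its values were seen. It stood at 12.7, 7.72 and 11.3 CPM after SLR10, 9.95, 9.33 and 5.69 CPM after SLR14, and 1.13, 1.01 and 1.15 CPM after poly(I:C), from 132 to 345 reads in an SLR library and 30 to 40 in a poly(I:C) library. No read of it was found in the pppNS, vehicle or naïve libraries. The SLR mean was 8.60 times the poly(I:C) mean, whereas the 10 members had ratios from 2.93 to 4.73. Its share among the 10 alpha genes was 0.650% to 1.197% after the SLRs (median 1.14%) and 0.327% to 0.583% after poly(I:C), with no overlap (two-sided exact permutation p = 0.0238, the smallest possible, not adjusted). The gene was picked for this difference, so the p is descriptive. Of the other type I interferon genes listed, Ifnz had 25 reads in 3 SLR10 libraries, 32 after SLR14, 35 after poly(I:C), 2 after pppNS, 1 in the vehicle and 4 in the naïve libraries, Ifnk 1 read in all, and Ifne none.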
